A study of Mus musculus with 12 samples.

Results

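The genes described here were 10 genes of bone matrix and of the cells that lay it down, namely Runx2, Sp7, Alpl, Bglap, Bglap2, Ibsp, Spp1, Dmp1, Mepe and Phex, measured in bulk RNA of mouse dorsal meninges. They were chosen by name, and all 10 were found among the 55385 rows of the count table and passed the filter on low counts that left 18238 genes for testing. All mice were male. They had received a single mild blow through the intact skull over the right inferior temporal lobe (traumatic brain injury, TBI) or a sham procedure (Sham). Sham mice were anaesthetised, shaved and positioned in the same way, and the impactor was released without contact. Tissue was taken 1.5 months later. The 12 libraries formed 4 groups of 3, namely Aged TBI, Aged Sham, Young TBI and Young Sham. Young mice were C57BL/6J and 10 weeks old at the procedure, and aged mice were C57BL/6 of 20 to 24 months bred in National Institute on Aging colonies, so supplier and age cannot be told apart. The meninges were scraped from the skullcap after perfusion, the impact site was not part of the tissue, and each library was a pool of mice.

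Bone is built by osteoblasts, which differentiate under the transcription factor Runx2 and, downstream of it, Sp7 (osterix). Osteoblasts secrete type I collagen together with small acidic proteins that bind mineral, and alkaline phosphatase (Alpl) lets mineral form by breaking down pyrophosphate, which inhibits it. Some osteoblasts become buried as osteocytes, and osteoclasts, large cells of the macrophage lineage, resorb the matrix. The dura is the outermost meningeal layer and lies against the inner face of the skull, so a scraped preparation can hold cells of that bone surface. The question asked of the 10 genes was whether their levels in this tissue differed with age and with injury.

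Total counts ranged from 8092374 to 16087717 per library. The 16 meningeal fibroblast genes listed as tissue markers were all tested and summed to between 7109 and 10286 CPM (counts scaled to the effective library size) in every library. The library Aged Sham 3 stood apart. In it 131 genes were more than 2-fold above the highest of the other 11 libraries, against 0 to 59 such genes in any other library. The pituitary hormone gene Gh was at 1033 CPM in Aged Sham 3, against at most 9.34 CPM elsewhere. Results that rest on Aged Sham 3 are given with and without it.

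A pair of the genes, Bglap and Bglap2, are near-identical copies of the osteocalcin gene, the most specific secreted product of the osteoblast, and their coding sequences are shown because they limit how well reads of the 2 genes can be assigned. They lie side by side on the minus strand of chromosome 3 (GRCm38, GENCODE release M21), Bglap at 88383501 to 88384464 and Bglap2 at 88377736 to 88378699, with starts 5765 bases apart. Capitals mark the 4 positions at which the 288 coding bases differ (identity 98.6%), counted from 1 at the A of the start codon with the base of Bglap first: A10C, T14C, A31G and T273C.
Bglap coding sequence: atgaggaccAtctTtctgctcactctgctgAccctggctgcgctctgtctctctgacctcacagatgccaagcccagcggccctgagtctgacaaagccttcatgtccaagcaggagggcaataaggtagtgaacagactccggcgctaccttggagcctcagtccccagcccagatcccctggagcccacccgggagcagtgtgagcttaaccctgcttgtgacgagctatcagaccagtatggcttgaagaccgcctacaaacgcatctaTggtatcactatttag
Bglap2 coding sequence: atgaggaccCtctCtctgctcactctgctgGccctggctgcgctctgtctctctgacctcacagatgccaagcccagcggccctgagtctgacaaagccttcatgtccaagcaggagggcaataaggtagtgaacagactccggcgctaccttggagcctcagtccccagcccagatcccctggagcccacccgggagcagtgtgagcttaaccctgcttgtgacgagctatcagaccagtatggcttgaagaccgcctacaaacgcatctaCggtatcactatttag
The longest stretch without a difference was 241 bases, so many reads from within it match both copies, and the values of either gene alone are uncertain.

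Osteoblast genes carry sites for RUNX proteins, whose core is ACCACA, and the bases before the start of transcription are shown for a gene that was lower in aged mice (Bglap) and for a pair that were high in Aged Sham 3 (Spp1 and Dmp1). Promoters of 8 of the 10 genes were matched in the RefSeq table (GRCm38.p6), Bglap2 and Sp7 being named only. ACCACA or its complement TGTGGT, searched on both strands in the 250 bases before the start, was found in 5 of the 8 (Spp1, Bglap, Dmp1, Runx2 and Mepe) and in 14% of 32851 promoter windows of the same length. Capitals mark the motif, which began 128, 132 and 164 bases before the start of Spp1, Bglap and Dmp1 in that order, and a match describes letters and not a bound site.
Spp1, chr5:104434861-104435110, plus strand: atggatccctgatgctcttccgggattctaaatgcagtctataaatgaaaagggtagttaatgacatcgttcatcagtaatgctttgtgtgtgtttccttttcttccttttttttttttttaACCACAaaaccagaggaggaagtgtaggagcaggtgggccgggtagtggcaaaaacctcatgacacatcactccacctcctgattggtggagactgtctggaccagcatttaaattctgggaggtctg
Bglap, chr3:88384467-88384716, minus strand: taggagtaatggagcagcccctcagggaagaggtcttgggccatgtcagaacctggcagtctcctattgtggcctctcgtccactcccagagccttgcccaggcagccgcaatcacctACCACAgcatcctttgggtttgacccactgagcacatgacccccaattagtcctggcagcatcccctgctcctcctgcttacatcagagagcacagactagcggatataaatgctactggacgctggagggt
Dmp1, chr5:104202367-104202616, plus strand: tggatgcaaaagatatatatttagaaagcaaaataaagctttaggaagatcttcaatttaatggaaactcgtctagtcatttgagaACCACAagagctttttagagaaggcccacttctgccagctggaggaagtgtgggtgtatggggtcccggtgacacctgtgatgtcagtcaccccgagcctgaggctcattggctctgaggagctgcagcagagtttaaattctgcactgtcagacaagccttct

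Levels between genes were compared per kilobase of exon, in Young Sham. Alpl was highest at 218 ± 36.1 CPM per kilobase, followed by Bglap2 (155 ± 11.6), Spp1 (141 ± 26.7) and Bglap (136 ± 11), whose ranges overlapped from one to the next. Sp7 (33.6 ± 4.09) and Ibsp (29.5 ± 5.99) overlapped as well, and Runx2 stood below them at 14.9 ± 0.68. Dmp1 (3.22 ± 0.124), Mepe (2.003 ± 1.86) and Phex (0.431 ± 0.098) were lowest, with Dmp1 and Mepe overlapping (SD, n = 3 libraries each). Transcripts best known in bone from osteoblasts were thus far more abundant per length than those of Dmp1, Mepe and Phex, which are best known from osteocytes.

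**Figure D1:**
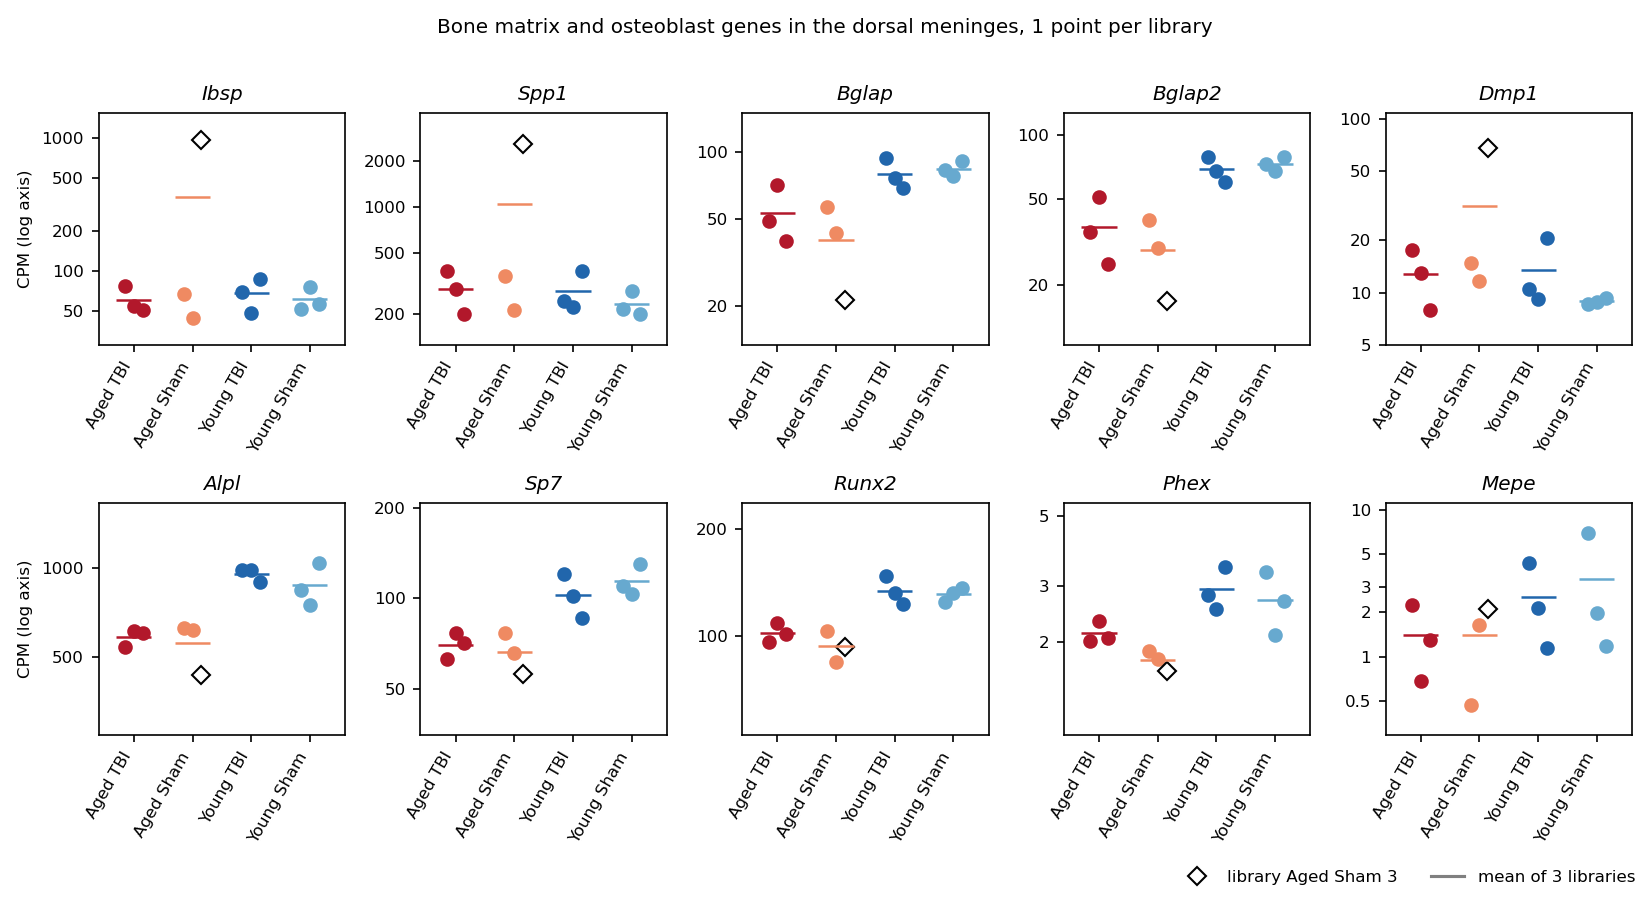
Level of each of the 10 genes in each library, in CPM on a log axis, by group, with 1 point per library and a bar at the mean of 3 libraries. The open diamond is Aged Sham 3, which is highest for Ibsp (973 CPM), Spp1 (2556 CPM) and Dmp1 (67.9 CPM) and lowest for Bglap, Bglap2, Alpl, Sp7 and Phex.

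The osteoblast transcription factors and the mineralising enzyme Alpl were lower in aged than in young meninges, after either procedure. Runx2, the factor that commits cells to the osteoblast lineage, had 96.6, 109 and 101 CPM in Aged TBI and 104, 84.7 and 93.5 CPM in Aged Sham, against 148, 132 and 123 CPM in Young TBI and 125, 133 and 136 CPM in Young Sham. All 6 aged libraries lay below all 6 young ones. The log2 fold change of Runx2 was -0.39 ± 0.08 among injured mice (adjusted p = 0.0118) and -0.48 ± 0.08 among sham mice (adjusted p = 0.00589, edgeR quasi-likelihood test with Benjamini-Hochberg adjustment over all genes tested, ± standard error).

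Sp7, which acts after Runx2 and is needed for bone formation, had 62.6, 76.6 and 71.2 CPM in Aged TBI and 76.8, 66.0 and 56.2 CPM in Aged Sham, against 121, 102 and 86.1 CPM in Young TBI and 109.6, 103 and 129.7 CPM in Young Sham. The ages did not overlap here either. Its log2 fold change was -0.55 ± 0.14 among injured mice (adjusted p = 0.0231) and -0.78 ± 0.14 among sham mice (adjusted p = 0.00647). Alpl had 543, 612 and 604 CPM in Aged TBI and 627, 617 and 436 CPM in Aged Sham, against 985, 989 and 895 CPM in Young TBI and 845, 753 and 1038 CPM in Young Sham. Every aged library again lay below every young one. Alpl fell to 0.613-fold among injured mice (log2 fold change -0.71 ± 0.14, adjusted p = 0.00734) and to 0.638-fold among sham mice (-0.65 ± 0.14, adjusted p = 0.0139). The paper lists Alpl among the markers of dural fibroblasts, so its level does not mark osteoblasts alone. In bulk tissue, fewer cells that express these genes and less RNA of them per cell cannot be told apart.

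The osteocalcin genes moved in the same direction. Bglap2 had 35.2, 51.5 and 25.0 CPM in Aged TBI and 40.3, 29.8 and 16.9 CPM in Aged Sham, against 78.8, 67.7 and 60.1 CPM in Young TBI and 73.4, 67.6 and 78.5 CPM in Young Sham. The ages did not overlap. Its log2 fold change, -0.89 ± 0.27 among injured mice (adjusted p = 0.0524) and -1.33 ± 0.28 among sham mice (adjusted p = 0.0130), was called in both. Bglap had 48.7, 71.1 and 39.6 CPM in Aged TBI and 56.3, 42.9 and 21.3 CPM in Aged Sham, against 94.4, 76.6 and 68.5 CPM in Young TBI and 82.9, 78.3 and 91.6 CPM in Young Sham. For Bglap the ages overlapped between Aged TBI 2 and Young TBI 3. Its change was called among sham mice (log2 fold change -1.07 ± 0.28, adjusted p = 0.0364) and not among injured mice (-0.59 ± 0.28, adjusted p = 0.191), and without Aged Sham 3 it was called in both (adjusted p = 0.0528 among injured and 0.0492 among sham mice). That the change differed between the procedures is not shown, since the interaction was 0.48 ± 0.40 with an adjusted p of 0.802.

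The share of osteocalcin counts assigned to Bglap2 also differed by age, a comparison chosen after the values were seen. Bglap2 took 42.0%, 42.0% and 38.7% of the counts of both copies in Aged TBI and 41.7%, 41.0% and 44.2% in Aged Sham, against 45.5%, 46.9% and 46.7% in Young TBI and 47.0%, 46.3% and 46.1% in Young Sham. The aged libraries averaged 41.6% ± 1.77 and the young libraries 46.4% ± 0.568 (SD, n = 6 libraries each), a difference of -4.84 points (two-sided exact permutation test within procedure, p = 0.005, the smallest of 400 relabellings). Without Aged Sham 3 the difference was -5.35 points (p = 0.005 by the same exact test, the smallest of 200 relabellings). In Aged Sham 3 the share rested on 208 and 263 counts of Bglap2 and Bglap, and its 95% Wilson interval of 39.7% to 48.7% covered the young values. Intervals cover counting error only, and how the authors' counting treated reads that match both copies is not given in the sources used here.

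**Figure D2:**
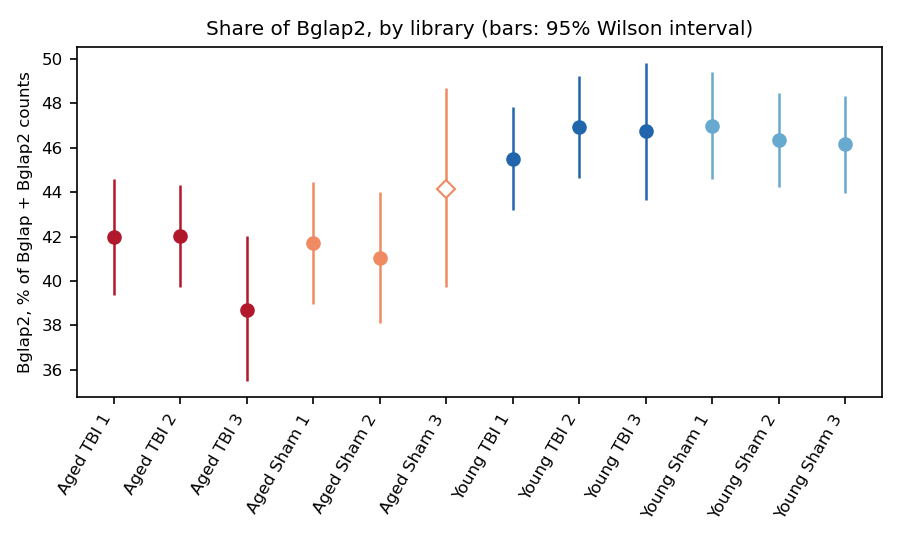
Share of the summed Bglap and Bglap2 counts that were assigned to Bglap2, in percent, in each of the 12 libraries, with bars for the 95% Wilson interval. The aged libraries lie between 38.7% and 44.2% and the young libraries between 45.5% and 47.0%, with the open diamond for Aged Sham 3.

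Phex and Mepe, both genes of osteocytes and late osteoblasts, were measured near the lower end of the range. Phex, a membrane peptidase that restrains peptides blocking mineral growth, had 2.01, 2.33 and 2.05 CPM in Aged TBI and 1.88, 1.77 and 1.62 CPM in Aged Sham, against 2.81, 2.55 and 3.45 CPM in Young TBI and 3.34, 2.10 and 2.69 CPM in Young Sham, from 20 to 35 counts a library. The sham groups and the injured groups each stood apart, and the change was called among sham mice (log2 fold change -0.61 ± 0.21, adjusted p = 0.0920) but not once Aged Sham 3 was left out (adjusted p = 0.197). Among injured mice the change of Phex was -0.45 ± 0.21 (adjusted p = 0.180). Mepe, a phosphoglycoprotein of the bone matrix, had 0.685 to 2.25 CPM in Aged TBI and 0.469 to 2.11 CPM in Aged Sham, against 1.15 to 4.36 CPM in Young TBI and 1.18 to 6.96 CPM in Young Sham. Its groups overlapped, and at 6 to 73 counts a library Mepe was called in no comparison with all 12 libraries and the filter on low counts. Its log2 fold change with age averaged over both procedures was -1.04 (adjusted p = 0.154), with a call without Young Sham 3 (adjusted p = 0.0981) and with no filter on low counts.

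Among sham mice 6 of the 10 genes were called lower in aged mice (7.71% of all genes tested were called lower) and 3 were called higher (7.89% of all genes). Among injured mice 4 of 10 were called lower (10.3% of all genes) and 0 higher (9.92% of all genes), with 0 called higher by DESeq2. At an unadjusted p under 0.05 were 4 of the 10, and 5211 of all 18238 genes. Averaged over both procedures 6 of 10 were called lower, namely Bglap, Bglap2, Alpl, Sp7, Runx2 and Phex (15.7% of all genes), and 0 higher (16.9% of all genes, with 0 called higher by DESeq2 as well). On average 7 of the 10 genes had an unadjusted p under 0.05, as had 6799 of all 18238 genes. That 0 were higher depended on the fit. Ibsp, Spp1 and Dmp1 were each called higher on average in 2 of 12 fits with 1 library left out, and also with no filter on low counts. Without Aged Sham 3 the genes called lower numbered 5 among sham mice (7.31% of all genes), 5 among injured mice (12.2%) and 6 on average (15.7%). For Bglap2, Alpl, Sp7 and Runx2 all 6 aged libraries lay below all 6 young ones, as they did for 5.35% of all genes tested. The median log2 fold change of the 10 genes, averaged over both procedures, was -0.60, against 0.01 over all genes tested.

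The calls of Runx2, Sp7 and Alpl in each age comparison held when any 1 of the 12 libraries was left out. Bglap2 among sham mice held in the same way, but among injured mice its call was lost without Young TBI 1, Young TBI 2, Aged TBI 1 or Aged TBI 3 (adjusted p up to 0.161). Bglap among sham mice lost its call without Young Sham 3 (adjusted p = 0.125), and Phex among sham mice held in 2 of 12 such fits.

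**Figure D3:**
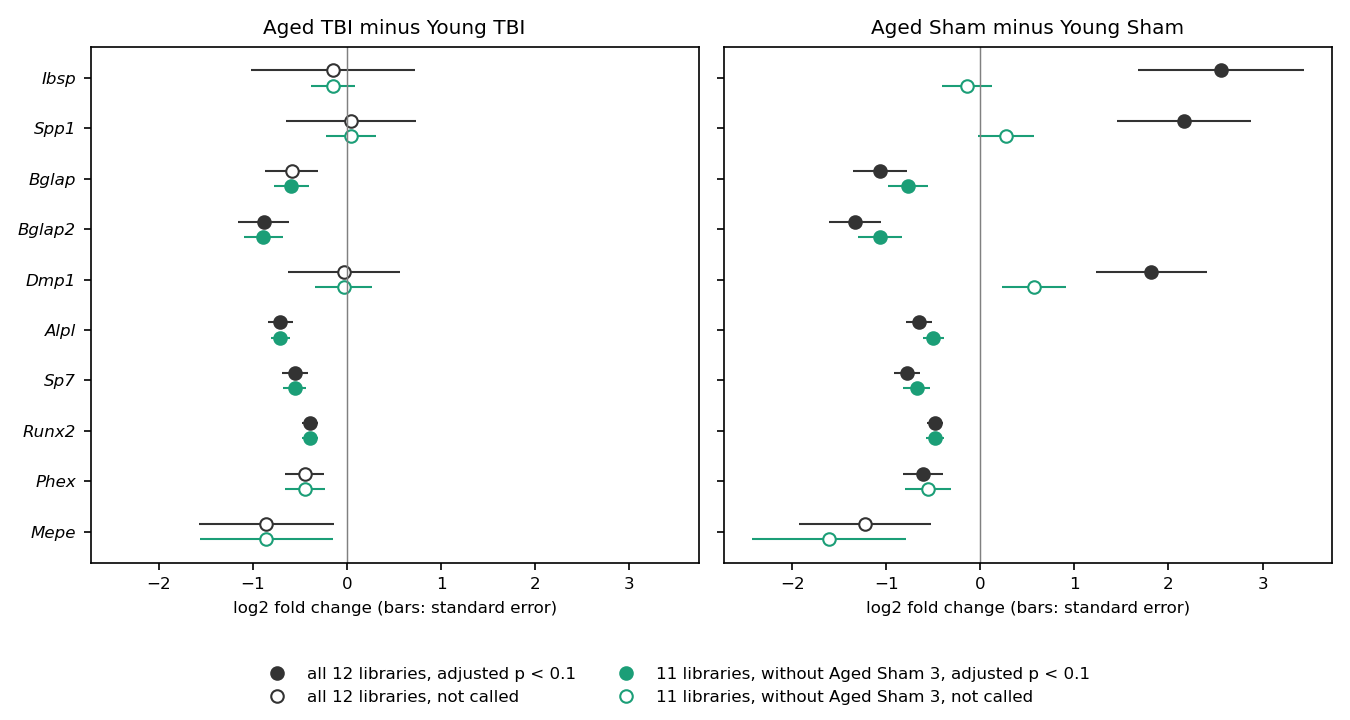
Log2 fold change of the 10 genes with age, among injured mice (left) and among sham mice (right), with bars for the standard error, from all 12 libraries (dark) and from 11 libraries without Aged Sham 3 (green), filled where the adjusted p is under 0.1. Ibsp, Spp1 and Dmp1 lie at 2.56, 2.16 and 1.81 among sham mice with all libraries and at -0.14, 0.28 and 0.57 without Aged Sham 3, whereas Alpl, Sp7 and Runx2 lie below 0 in all 4 fits.

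Ibsp, Spp1 and Dmp1 were called higher in Aged Sham than in Young Sham with the library Aged Sham 3 in the fit, and were not called without it. They belong to the SIBLING family, secreted acidic phosphoproteins that bind integrins and mineral. Ibsp, bone sialoprotein, which nucleates mineral, had 77.2, 54.7 and 50.3 CPM in Aged TBI and 67.3, 44.2 and 973 CPM in Aged Sham, against 69.1, 48.3 and 86.3 CPM in Young TBI and 51.8, 75.2 and 56.4 CPM in Young Sham. Only Aged Sham 3 lay outside the range of 44.2 to 86.3 CPM that held the other 11 libraries, at 11.3-fold above the highest of them. Among sham mice the log2 fold change of Ibsp was 2.56 ± 0.89 (adjusted p = 0.0920), and without Aged Sham 3 it was -0.14 ± 0.26 (adjusted p = 0.819).

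Spp1, osteopontin, which is also made by osteoclasts and activated macrophages, had 378, 288 and 199.5 CPM in Aged TBI and 352, 211 and 2556 CPM in Aged Sham, against 241, 220 and 378 CPM in Young TBI and 215, 282 and 199.6 CPM in Young Sham. Aged Sham 3 was 6.76-fold above the next library, and the 4 groups overlapped otherwise. The log2 fold change among sham mice was 2.16 ± 0.71 (adjusted p = 0.0793), and 0.28 with an adjusted p of 0.649 without Aged Sham 3. Dmp1, an osteocyte protein that regulates mineralisation and phosphate, had 17.7, 12.9 and 7.99 CPM in Aged TBI and 14.8, 11.7 and 67.9 CPM in Aged Sham, against 10.6, 9.24 and 20.7 CPM in Young TBI and 8.58, 8.83 and 9.26 CPM in Young Sham. All 3 Aged Sham libraries lay above all 3 Young Sham libraries for Dmp1. Its log2 fold change among sham mice was 1.81 ± 0.59 (adjusted p = 0.0755), and 0.57 with an adjusted p of 0.359 without Aged Sham 3. Among injured mice the changes of Ibsp, Spp1 and Dmp1 with age were -0.15 ± 0.87, 0.05 ± 0.69 and -0.03 ± 0.59, and none was called.

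The calls of these 3 genes among sham mice were also lost when other libraries were left out. Ibsp kept its call in 2 of 12 such fits, Spp1 in 6 and Dmp1 in 7. Since the groups share 1 estimate of the spread, Aged Sham 3 also entered comparisons without it, and the standard error of Ibsp in Young TBI against Young Sham was 0.87 with all libraries and 0.24 without Aged Sham 3. The count of 9 of 10 genes called among sham mice became 5 without Aged Sham 3, Young Sham 1 or Young TBI 1, and 4 without Young Sham 3. Over all genes tested the share called fell as well, from 15.6% with all libraries. It was 13.1% without Aged Sham 3, 10% without Young Sham 1, 13.4% without Young TBI 1 and 6.57% without Young Sham 3.

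The SIBLING genes lie in a cluster of 270 kb on chromosome 5, in the order Dspp, Dmp1, Ibsp, Mepe and Spp1 on the plus strand (GRCm38, 104170712 to 104441050). The rise in Aged Sham 3 did not extend over the whole cluster. Mepe, between Ibsp and Spp1, was at 2.11 CPM in Aged Sham 3 and at 0.469 to 6.96 CPM in the other 11 libraries. Dspp, a dentin gene, had 0 counts in Aged Sham 3 (which allows up to 0.243 CPM) and at most 0.0797 CPM elsewhere. The flanking genes Sparcl1, a matricellular protein, and Pkd2, a cation channel, were at 366 and 245 CPM in Aged Sham 3, inside the ranges of 308 to 401 CPM and 199 to 254 CPM of the other libraries.

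The same library was lowest of all 12 for 5 of the 10 genes (14.6% of all genes tested were lowest in it). It held 21.3 CPM of Bglap, 16.9 CPM of Bglap2, 436 CPM of Alpl, 56.2 CPM of Sp7 and 1.62 CPM of Phex, which were 53.8%, 67.4%, 80.4%, 89.8% and 91.8% of the lowest of the other 11 libraries. Runx2 in Aged Sham 3 (93.5 CPM) lay between Aged Sham 1 and 2. Of the 10 genes, Ibsp, Spp1 and Dmp1 were thus at their highest in this library and Bglap, Bglap2, Alpl, Sp7 and Phex at their lowest.

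Genes of the osteoclast stood high in Aged Sham 3 as well. The 15 listed summed to 3285 CPM in it, against 765 to 1125 CPM in the other 11 libraries, and 13 of the 14 tested were highest in it (14.8% of all genes tested were), 8 of them by more than 2-fold. Acp5, the acid phosphatase that marks osteoclasts, reached 492 CPM there, against no more than 83.8 CPM elsewhere. Ctsk, the protease that degrades bone collagen, reached 1011 CPM there, against no more than 333 CPM elsewhere. Mmp9 was at 842 CPM against at most 171 CPM, and Calcr, the calcitonin receptor, at 15.1 CPM against at most 0.616 CPM. Tnfsf11, the ligand RANKL that drives osteoclast formation, was at 16.7 CPM against at most 5.36 CPM. The defining osteoclast markers were above 0 in every library.

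Among the other marker lists, those of osteocyte, lipid-associated macrophage and pituitary genes had their highest sum in Aged Sham 3 too. Of all genes tested, 14.8% were highest in this library and 14.6% were lowest. The 11 listed osteocyte genes summed to 311 CPM in Aged Sham 3, against 223 to 265 CPM elsewhere. Highest in it were 5 of the 9 tested, namely Tnfsf11, Tnfrsf11b, Pdpn, Ackr3 and Cd44. Sost (0.973 CPM), Dkk1 (0.324 CPM), Irx5 (12.7 CPM) and Kcnk2 (33.2 CPM) lay inside the ranges of the other libraries. Lipid-associated macrophage genes summed to 4890 CPM, against 3591 to 4382 CPM elsewhere, with Apoe the most abundant of them. Highest in Aged Sham 3 were 5 of 10 (14.8% of all genes), namely Gpnmb (58.9 CPM, against at most 46.7 CPM), Lgals3 (81.4 against 63.2 CPM), Cd9 (169.6 against 157 CPM), Ctsl (626 against 404 CPM) and Apoe (3219 against 2993 CPM). Lpl was lowest in it (67.9 CPM, against at least 73.3 CPM), and Trem2, Fabp5, Cd63 and Plin2 lay inside the ranges of the other libraries. Macrophage genes summed to 2712 CPM, inside the range of 2158 to 3273 CPM of the other libraries, with 3 of 14 highest in it (Cd163, Cd14 and Itgam) and 3 lowest (Adgre1, Mrc1 and Aif1). Of the 9 tested megakaryocyte genes 5 were highest in it, but their sum of 117 CPM lay inside the range of 67.2 to 140.1 CPM of the others. Neutrophil and granulocyte precursor genes summed to 745 CPM in Aged Sham 3, inside the range of 174 to 1203 CPM. The 17 listed cartilage genes summed to 800.0 CPM, below the 1016 to 1639 CPM of the other libraries. The pituitary list summed to 1044 CPM, nearly all of it Gh. Pomc (2.92 CPM) and Cga (5.92 CPM) lay inside the ranges of the other libraries. Prl had 4 counts in Aged Sham 3 and 0 CPM elsewhere, and Pou1f1 was at 0.73 CPM against at most 0.337 CPM. The part of osteoclast, macrophage, osteocyte or pituitary RNA in the values of Ibsp, Spp1 and Dmp1 was not tested.

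**Figure D4:**
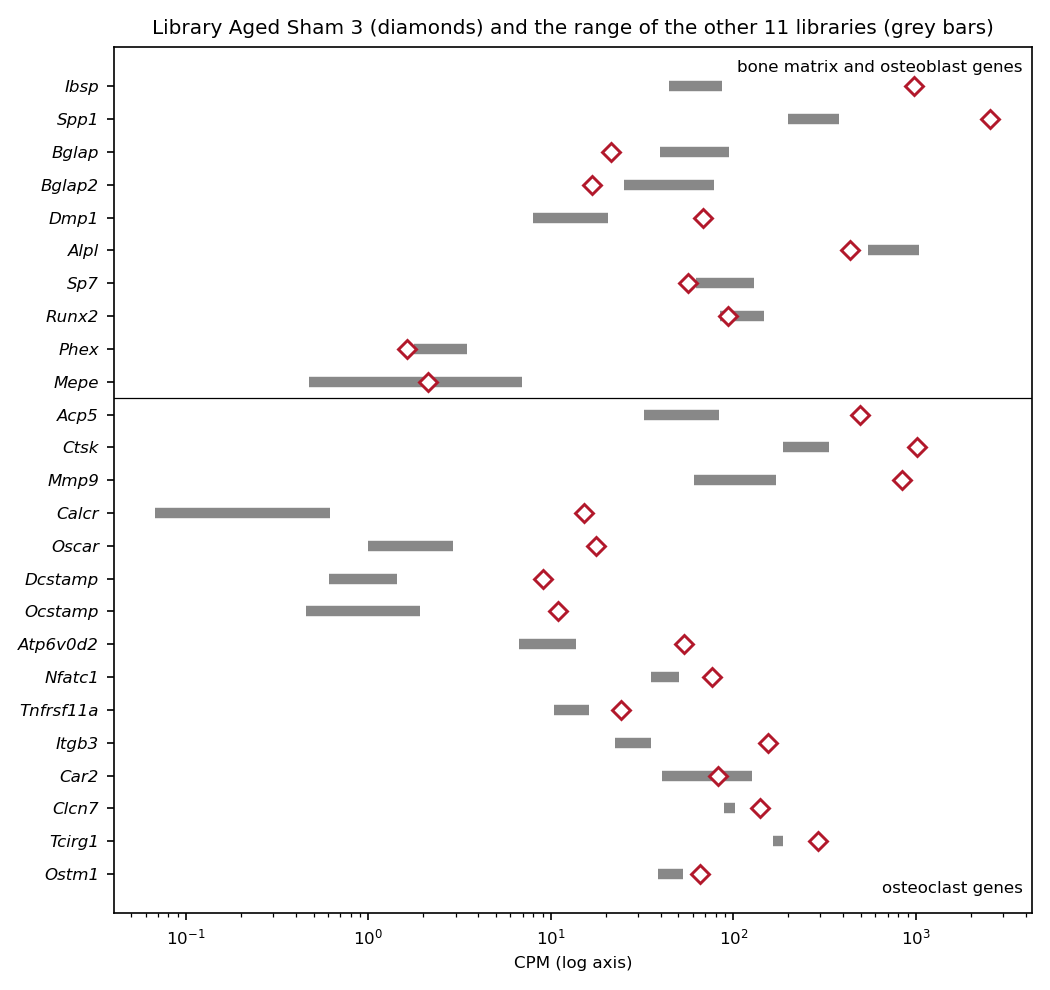
Level of the 10 bone matrix and osteoblast genes (upper block) and of 15 osteoclast genes (lower block) in Aged Sham 3 (diamonds) and the range of the other 11 libraries (grey bars), in CPM on a log axis. Ibsp, Spp1 and Dmp1 lie to the right of their bars with Acp5, Ctsk and Mmp9, and Bglap, Bglap2 and Alpl lie to the left of theirs.

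Across libraries the genes fell into sets that varied together, given here as Pearson r of log2 CPM and as a description, since the libraries share groups and tissue. Bglap and Bglap2 had r = 0.982 over 12 libraries and 0.988 over the 6 young ones, and reads of these copies may be shared. Sp7 had r = 0.931 with Runx2, 0.929 with Alpl and 0.890 with Bglap over 12 libraries, but 0.460 with Alpl over the 6 young ones. Ibsp had r = 0.979 with Spp1 over 12 libraries, 0.814 over 11 without Aged Sham 3 and 0.881 over the 6 young ones. With Bglap, Ibsp had r = -0.689 over 12 libraries, 0.205 without Aged Sham 3 and -0.352 over the 6 young ones. Spp1 with Bglap had r = -0.727, -0.11 and -0.735 in the same order. The search covered 14553 genes with a mean of at least 1 CPM over all 12 libraries, Aged Sham 3 included. Those most like Ibsp over 12 libraries were Spp1, Mbd1, Dcstamp, Acp5 and Lvrn (r of 0.979 down to 0.965). Without Aged Sham 3 they were Fam136a, Cyp2t4, Spp1, Pwp2 and Acp5 (0.902 down to 0.808). Those most like Spp1 were Ibsp, Lvrn, Mbd1, Ocstamp and Dmp1 over 12 libraries (0.979 down to 0.962), and without Aged Sham 3 Pwp2, Dmp1, Ramac, Ocstamp and Ngrn (0.877 down to 0.836). The osteoclast genes Acp5 and Dcstamp (for Ibsp) and Ocstamp (for Spp1) were thus among the most alike over 12 libraries. Acp5 for Ibsp and Ocstamp for Spp1 were so also without Aged Sham 3. The 4 most like Bglap over 12 libraries were Bglap2, Kazald1, Omd and Kcns1 (0.982 down to 0.974), of which Omd encodes osteomodulin, a proteoglycan of bone. Without Aged Sham 3 those most like Bglap were Bglap2, Ube3c, Kcns1, Palld and Antxr1 (0.989 down to 0.954), and Omd was not among them. Over 12 libraries those most like Alpl were Gdf10, Ptprv, Pcolce, Rap1gap and Acan (0.981 down to 0.971), and those most like Runx2 were Bace1, Twist1, Bicc1, Kctd15 and Sobp (each at 0.969 or above). Without Aged Sham 3 those most like Alpl were St3gal2, Qsox1, Fbln1, Gdf10 and Ggcx (0.979 down to 0.974). For Runx2 they were then Bace1, Lmo7, Shisa2, Kctd15 and Twist1 (0.983 down to 0.973).

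None of the 10 genes was called with injury at either age. In young mice 0 of 10 were called (0.00548% of all genes, 1 gene), 0 had an unadjusted p under 0.05 (757 of all 18238 genes) and 0 were called by DESeq2. The log2 fold changes of Young TBI against Young Sham were 0.03 ± 0.08 for Runx2, -0.15 ± 0.14 for Sp7, 0.12 ± 0.14 for Alpl and -0.08 ± 0.28 for Bglap, so differences of the size seen with age in Runx2, Sp7 and Alpl were outside 2 standard errors. Dmp1 had the largest, at 0.57 ± 0.62, with Young TBI 3 (20.7 CPM) above the other 5 young libraries (8.58 to 10.6 CPM). In aged mice 0 of 10 were called (1.65% of all genes) and 0 by DESeq2, and 3 had an unadjusted p under 0.05 (2633 of all 18238 genes). Those 3 were Ibsp, Spp1 and Dmp1, whose log2 fold changes of -2.57 ± 0.88, -1.85 and -1.27 in Aged TBI against Aged Sham became 0.13, 0.04 and -0.03 without Aged Sham 3. The changes of Alpl, Sp7 and Runx2 with injury in aged mice were 0.07 ± 0.14, 0.08 and 0.12.

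The effect of injury was not shown to differ between the ages for any of the 10 genes. In edgeR 0 were called for the interaction (0% of all genes) and 0 in DESeq2, with 2 of 10, Ibsp and Dmp1, at an unadjusted p under 0.05 (1386 of all 18238 genes). Their interaction estimates of -2.71 ± 1.23 and -1.84 became -0.01 and -0.61 without Aged Sham 3.

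The wider set of bone genes also differed with age, described from lists written with earlier results of these data known. Of 21 other genes of bone matrix and mineralisation, 11 were called lower and 1 higher in aged mice on average over both procedures (15.7% of all genes tested were called lower and 16.9% higher), with a median log2 fold change of -0.35 (all genes, 0.01), and without Aged Sham 3 the counts were 13 lower and 1 higher. Col1a1, the main chain of bone and skin collagen, averaged 2825 ± 399 CPM in Aged TBI and 2773 ± 127 CPM in Aged Sham, against 6367 ± 643 CPM in Young TBI and 6296 ± 921 CPM in Young Sham (SD, n = 3 libraries each; log2 fold change -1.18 ± 0.09, adjusted p = 1.42e-05). Postn, periostin, a matrix protein of periosteum and other fibrous tissue, averaged 210.1 ± 71.9 CPM in Aged TBI and 209 ± 60.5 CPM in Aged Sham, against 654 ± 94.7 CPM in Young TBI and 603 ± 83.2 CPM in Young Sham (-1.58 ± 0.17, adjusted p = 0.000118). Tnc, tenascin C, and Cthrc1, a collagen triple helix protein, were lower too, with log2 fold changes of -0.94 ± 0.11 and -0.91 ± 0.13. These 4 genes are also made by fibroblasts, so they do not mark bone alone.

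Osteoblast regulators were called lower for 7 of 13 (15.7% of all genes) and higher for 1 (16.9% of all genes), with a median of -0.23. Dlx5 and Dlx6, neighbouring homeobox genes that act before Sp7, were at -0.79 ± 0.17 and -0.71 ± 0.20, and Twist1, which restrains Runx2, at -0.54 ± 0.08. Tcf7, a Wnt effector that T cells also express, was the one called higher, at 0.55 ± 0.14. Among 20 tested genes of the bone morphogenetic protein and Wnt pathways that act on osteoblasts, 6 were called lower (15.7% of all genes) and 4 higher (16.9% of all genes), with a median of 0.01, so the count called higher was near the share over all genes. Lrp5, a Wnt coreceptor needed for bone mass, was lower (log2 fold change -0.76 ± 0.06), as was Nog, an antagonist of bone morphogenetic proteins (-0.76 ± 0.11). Bmp4 was higher by 0.68 ± 0.12, and Grem1, another antagonist of bone morphogenetic proteins, by 0.92 ± 0.18.

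Osteocyte genes were called lower for 2 of the 9 tested (15.7% of all genes) and higher for 3 (16.9% of all genes), with a median of 0.27 (0.13 without Aged Sham 3, when 1 was called higher). With so few genes these counts lie near the shares over all genes. Irx5 and Kcnk2 were lower, with log2 fold changes of -0.57 ± 0.11 and -0.41 ± 0.09, and Tnfrsf11b, the decoy receptor osteoprotegerin that restrains osteoclasts, was higher by 0.50 ± 0.09. Of 14 tested osteoclast genes 2 were called higher on average, Tnfrsf11a (0.42 ± 0.14) and Ostm1 (0.39 ± 0.07), with a median of 0.43, a count near the share of all genes called higher (16.9%), whereas without Aged Sham 3 the counts were 2 higher and 3 lower with a median of -0.20.

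**Figure D5:**
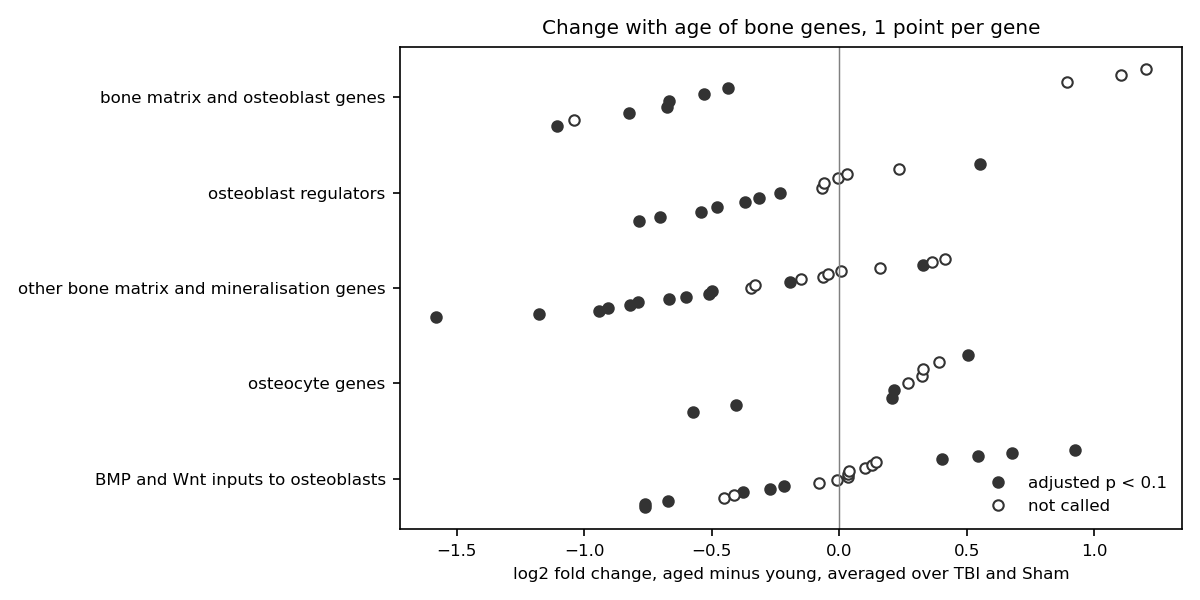
Log2 fold change with age, averaged over TBI and Sham, of each tested gene in 5 lists (the 10 genes, 13 osteoblast regulators, 21 other matrix and mineralisation genes, 9 osteocyte genes, 20 genes of the bone morphogenetic protein and Wnt pathways), with filled points at an adjusted p under 0.1. Most filled points of the upper 3 lists lie below 0, and the open points near 1 in the top row are Ibsp, Spp1 and Dmp1.

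Markers of other tissues also moved with age beside the lower osteoblast genes. The 16 meningeal fibroblast genes summed to 7611 to 8225 CPM in Aged TBI and 7109 to 8304 CPM in Aged Sham, against 9680 to 10099 CPM in Young TBI and 8944 to 10286 CPM in Young Sham, with 5 called lower and 4 higher on average (15.7% of all genes were called lower and 16.9% higher). Cartilage genes were called lower for 5 of 13 (15.7% of all genes) and higher for 1, among them Hapln1 (-1.35 ± 0.19) and Col11a1 (-1.06 ± 0.09), both of the cartilage matrix. Neutrophil and granulocyte precursor genes, which bone marrow expresses, were called higher for 14 of 14 (16.9% of all genes), and their sum was 669 to 1203 CPM in Aged TBI and 456 to 912 CPM in Aged Sham, against 192 to 601 CPM in Young TBI and 174 to 558 CPM in Young Sham. Macrophage genes were called higher for 11 of 14, megakaryocyte genes for 7 of 9 and lipid-associated macrophage genes for 5 of 10, and 0 of these were called lower (without Aged Sham 3, 10, 6 and 4 were called higher, and 2 lipid-associated macrophage genes lower). Of the remaining lists, brain genes were called higher for 3 of the 8 tested and lower for 1, and pituitary genes higher for 2 of the 3 tested (16.9% of all genes were called higher). Without Aged Sham 3, 4 brain genes and 1 pituitary gene were called higher. Red cell precursor genes were called higher for 1 of 10, early B cell genes for 1 of 8 and skeletal muscle genes for 0 of 10. Among these 3 lists only 1 skeletal muscle gene was called lower. The part of these tissues in the lower levels of Alpl, Sp7, Runx2, Bglap and Bglap2 was not tested.

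Some values may carry a limit from neighbouring genes, compared here by whole gene span with introns included. The span of Runx2 (318811 bases, 8837 of them exonic) overlaps the antisense genes Runx2os1 (9 to 36 counts), Runx2os2 and Runx2os3 and the opposite-strand gene Supt3 (122 to 315 counts). Whether their exons overlap was not examined. Since the strand setting of the counting was not given, reads from any shared exonic bases cannot be assigned between them. Spp1 overlaps Gm42793, a transcript of uncertain status on the same strand with 1 to 76 counts a library.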

How the data were processed

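Bulk RNA of pooled dorsal meninges was measured in 12 libraries, 3 in each of 4 groups taken from the labels. The deposited table holds raw counts per gene. To make it the authors mapped read pairs to mm10 by HISAT2, discarded PCR duplicates and uninformative alignments (SAMtools) and ran HTSeq. Versions, annotation release and strand setting are not given in the sources used here. Coordinates came from GENCODE M21 (53281 of 55385 rows matched by name, 96.2%). Genes were kept by filterByExpr (18238 genes, 99.8% of counts), scaled by TMM (factors 0.969 to 1.036) and tested in 1 quasi-likelihood model with 4 group means in edgeR 4.0.16 (R 4.3.3), with two-sided p-values, Benjamini-Hochberg adjustment over all genes and calls at an adjusted p under 0.1, as in the study. The study used DESeq2, run here (1.42.0) as an alternative beside other scalings, filters, left-out libraries and a replicate block. The genes and lists were chosen with earlier results of these data known. All 10 genes are named, with up to 4 called genes per list, ranked by absolute log2 fold change at a mean of at least 1 CPM. P-values measure the spread between pools.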

Additional observations from a re-analysis of the deposited data

How the results depend on the processing

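Of 1120 refitted changes of the 10 genes, 1021 kept their direction and side of the threshold, 50 lost a call, 18 gained one and 31 turned in sign, 0 of these with a call in the refit. The 31 fell on 20 changes, of which 1 was called with all libraries, Ibsp with age among sham mice, whose log2 fold change was -0.14 without Aged Sham 3 and up to 3.08 without any other library. Ibsp with age on average ran from -0.14 to 1.46 with 1 library left out. With injury in aged mice the log2 fold changes ran from -3.10 to 0.13 (Ibsp), -2.34 to 0.036 (Spp1), -0.086 to 0.15 (Alpl), -0.025 to 0.20 (Sp7) and -0.51 to 0.41 (Mepe, -0.22 with the replicate block), with injury in young mice from -0.058 to 0.35 (Ibsp), -0.00156 to 0.44 (Spp1), -0.20 to 0.028 (Bglap), -0.18 to 0.0096 (Bglap2), -0.031 to 0.099 (Runx2), -0.040 to 0.29 (Phex) and -0.94 to 0.71 (Mepe), with age among injured mice from -0.37 to 0.042 (Ibsp), -0.21 to 0.31 (Spp1) and -0.34 to 0.38 (Dmp1, 0.045 by library totals and 0.13 with the block), and for the interaction from -0.21 to 0.034 (Alpl), -0.016 to 0.32 (Phex) and -0.69 to 0.96 (Mepe). Among sham mice 9 genes were called with age (15.6% of all genes tested). With the replicate number as a block 5 were called (13.6% of all genes) and with only the 2 groups in the fit 5 (10.2%), both times 0 higher and 5 lower. With 1 library left out 4 to 8 were called (6.57% to 19.6% of all genes). The robust fit called 6 (0 higher, 6 lower, with 15.1% of all genes called) and DESeq2 7 (2 higher, 5 lower, with 14.1% of all genes called). With no filter on low counts 2 genes, Ibsp and Spp1, were called lower with injury in aged mice (1.96% of all genes were called in either direction). With age on average 10 were then called (14.8% of all genes), with Ibsp, Spp1 and Dmp1 higher and the rest lower. With 1 library left out, 6 to 9 genes were called with age on average (25.4% to 34.7% of all genes) and 3 to 5 among injured mice (11.3% to 24.2%). In those fits 0 were called with injury (at most 1.79% of all genes) or for the interaction (0%). The cause of these shifts was not tested. Replicate numbers did not pair the samples (r of deviations -0.183 to 0.111 over 18 pairs, 1 above 0.1), and the block changed no other count of calls. Mepe and Phex are limited by 6 to 73 and 20 to 35 counts a library.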
